A study of Mus musculus with 8 samples.

Results

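The immediate early genes and Myc were followed as a set of 10 genes, Fos, Jun, Junb, Jund, Atf3, Egr1, Ier2, Ier3, Btg2 and Myc, in mouse embryonic stem cells (mESCs) that differ in KLF3, a Kruppel-like repressor of transcription. The genes were chosen by symbol, and all 10 were present in both expression tables, among 13056 genes of the sorted cells and 14319 genes of the overexpressing cells. In the first experiment, KLF3-GFP-positive cells (positive cells below) were compared with KLF3-GFP-negative cells (negative cells) of the same reporter line, which carries a fusion of GFP to the part of KLF3 that lacks the DNA-binding domain under the CAGGS promoter, with DsRed as marker of the construct. The line was grown from picked colonies, and 500 cells were sorted for each of 2 samples per group and sequenced by Smart-seq2. In the second experiment, codon-optimized KLF3 (KLF3-OE) or GFP (GFP-OE) was induced with doxycycline for 72 hours in picked clones of R26 mESCs, which carry M2rtTA at Rosa26 and the inserted gene at Col1a1 and were selected on feeders, and poly(A) RNA was sequenced in 2 samples per group. The strain of all 4 groups is given as C57BL/6(F) x 129/sv(M), and all cells were cultured in serum with leukaemia inhibitory factor (LIF).

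Immediate early genes are switched on within minutes by growth factors, cytokines or stress, without new protein synthesis, through factors such as SRF and CREB that are already present in the cell. Many encode transcription factors. FOS, JUN, JUNB, JUND and ATF3 are leucine zipper proteins that pair with each other to form AP-1 complexes, and EGR1 is a zinc finger activator. MYC pairs with MAX and drives genes of growth and ribosome synthesis. In mESCs, Myc is a target of the LIF and STAT3 pathway that maintains self-renewal, and the paralogue Mycn is expressed beside it.

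The values are FPKM (fragments per kilobase of transcript and 1000000 fragments), given as 1 average per group, the authors' mean of the 2 samples. The spread between the samples is therefore not known, and no SD and no test stands beside a difference. Differences are given as log2(FPKM + 1) of the KLF3 group minus that of the control group, a scale on which the change of low genes is understated. Genes averaging 1 FPKM or more over the compared groups counted as tested, and a gene was called higher or lower past a 2-fold difference on this scale. Of the 10 genes, 8 passed the minimum in sorted cells, without Fos and Egr1, and 9 in overexpressing cells, without Fos. Jun and Atf3 passed in sorted cells through the KLF3-GFP-positive group alone. Counts of members called are therefore over all 10 genes unless the tested members are named. Some genes of the lists below that were called higher also passed through the KLF3 group alone. Among them were Ccnd2, Crtc3 and Bag3 in sorted cells and Fosl1 and Batf3 on overexpression. Fewer cells that express a gene and less RNA per cell cannot be told apart in these pools.

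In KLF3-GFP-positive cells, 5 of the 10 genes (Btg2, Jun, Atf3, Ier3 and Junb) were higher past 2-fold and 2 (Myc and Ier2) were lower. Over all 9212 genes tested, 13.8% were higher and 8.32% lower past the same limit, 22.1% in either direction. Without the minimum, which the count over 10 members also leaves out, 1320 of 13056 genes were higher and 810 lower. In KLF3-OE cells, 2 of the 10 genes (Myc and Junb) were higher past 2-fold and none was lower, where 6.59% of 11179 genes were higher and 10.1% lower, 16.7% in either direction. With median-ratio scaling of the columns these overexpression counts were 1164 higher and 699 lower, in place of 737 and 1132. Without the minimum, 748 of 14319 genes were higher and 1148 lower on overexpression. Among the shortest genes, which include 8 of the 9 members tested, 16.4% were higher. Counts of listed genes in later paragraphs stand against the same shares over all genes tested. Counting direction alone, 8 of 10 genes were higher in the KLF3 group of each experiment, and 6 of 8 and 8 of 9 tested members. In sorted cells the 8 include Fos and Egr1, which were below the minimum. The median difference of all genes tested was 0.03 in sorted and -0.18 in overexpressing cells. Among the shortest genes it was 0.35 on overexpression. Jun, Junb, Jund, Atf3, Ier3 and Btg2 were higher in both experiments, and Junb was the only member called higher in both. Of the 8887 genes tested in both experiments, 23.8% were higher in both and 2.55% were called higher in both. Myc and Ier2 lay on opposite sides, lower in KLF3-GFP-positive and higher in KLF3-OE cells. Egr1 lay the other way round, as did Fos, whose difference in sorted cells was only 0.02.

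In negative cells the levels ran in the order Ier2, Junb, Myc, Jund, Btg2, Ier3, Fos, then Egr1 and Atf3 at the same value, and Jun. In positive cells the order was Ier2, Junb, Btg2, Ier3, Jund, Jun, Atf3, Myc, Egr1 and Fos, so that Myc moved from rank 3 to rank 8. In GFP-OE cells it was Ier2, Jund, Junb, Btg2, Ier3, Egr1, Myc, Atf3, Jun and Fos, and in KLF3-OE cells Myc stood at rank 4 in place of 7 and Egr1 at rank 9 in place of 6. With the spread unknown, neighbours in these orders cannot be called different.

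**Figure D1:**
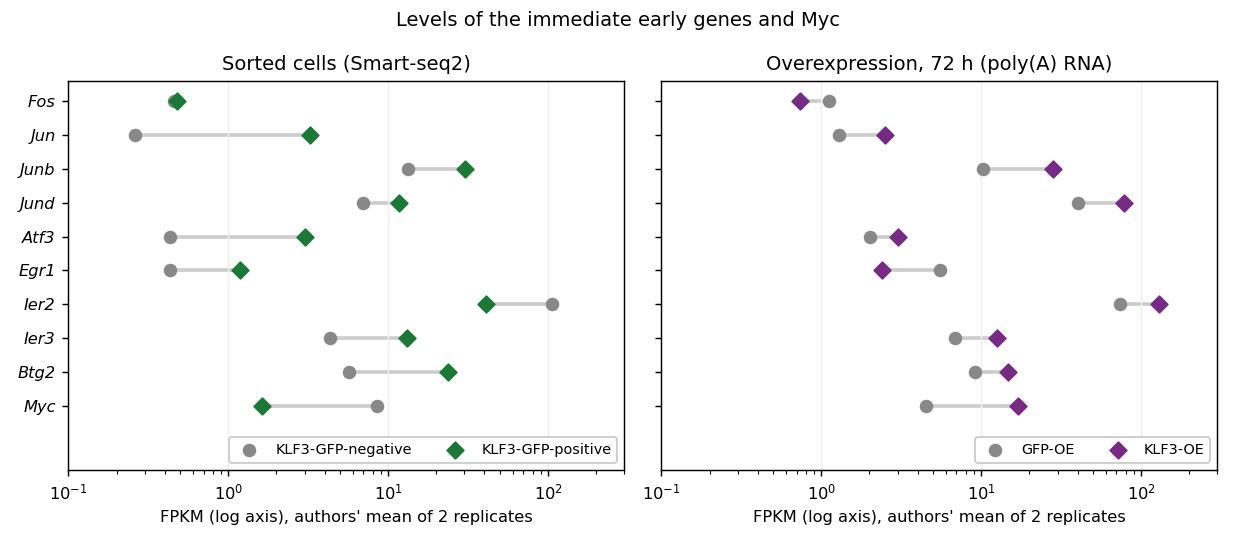
Levels of the 10 genes in FPKM on a log axis, as the authors' mean of 2 samples per group, in sorted cells (left) and overexpressing cells (right). Grey circles are the control groups and coloured diamonds the KLF3 groups. Ier2 was the highest member in all 4 groups, from 41.0 to 129.9 FPKM, and Fos stayed near or below 1 FPKM.

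**Figure D2:**
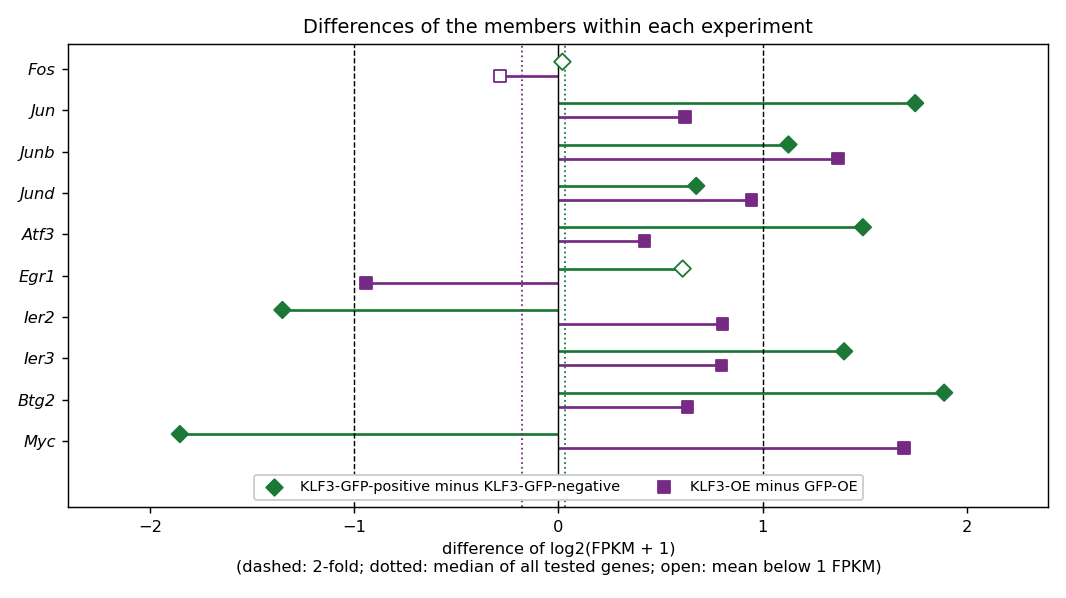
Differences of log2(FPKM + 1), KLF3 group minus control group, for each gene in both experiments. Dashed lines mark 2-fold, dotted lines the median of all genes tested (0.03 in sorted and -0.18 in overexpressing cells), and open symbols genes with a mean below 1 FPKM. Myc had differences of -1.85 and 1.69.

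The sequences before the start sites of the 5 genes called higher in positive cells are shown, because KLF3 binds C-rich boxes. The fusion that marks these cells lacks the DNA-binding domain, and members of the KLF family share a conserved one. Binding of KLF3 to these sites was not tested. They are the 250 bases before the RefSeq start, from GRCm38.p6, the assembly of mm10, written from 5′ to 3′ on the strand of the gene. Capitals mark matches, on either strand, to the KLF site CCNCNCCC, the cyclic AMP response element TGACGTCA or the EGR site GCGNGGGCG.
Jun, chr4:95052223-95052472 (minus strand): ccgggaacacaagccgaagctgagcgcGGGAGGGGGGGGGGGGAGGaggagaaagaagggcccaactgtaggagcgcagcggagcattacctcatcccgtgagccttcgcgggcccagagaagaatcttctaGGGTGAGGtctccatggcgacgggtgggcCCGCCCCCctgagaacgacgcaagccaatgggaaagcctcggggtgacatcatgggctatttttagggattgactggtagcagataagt
Junb, chr8:84978749-84978998 (minus strand): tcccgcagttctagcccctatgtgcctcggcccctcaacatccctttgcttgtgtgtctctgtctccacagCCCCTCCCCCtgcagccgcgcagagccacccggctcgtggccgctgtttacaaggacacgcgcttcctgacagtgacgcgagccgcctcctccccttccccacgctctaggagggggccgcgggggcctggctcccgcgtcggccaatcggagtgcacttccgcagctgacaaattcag
Atf3, chr1:191183334-191183583 (minus strand): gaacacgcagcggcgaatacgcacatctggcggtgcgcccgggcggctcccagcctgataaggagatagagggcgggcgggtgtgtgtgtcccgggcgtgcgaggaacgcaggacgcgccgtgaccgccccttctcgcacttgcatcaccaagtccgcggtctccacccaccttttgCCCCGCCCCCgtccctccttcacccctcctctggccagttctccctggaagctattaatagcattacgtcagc
Ier3, chr17:35821463-35821712 (plus strand): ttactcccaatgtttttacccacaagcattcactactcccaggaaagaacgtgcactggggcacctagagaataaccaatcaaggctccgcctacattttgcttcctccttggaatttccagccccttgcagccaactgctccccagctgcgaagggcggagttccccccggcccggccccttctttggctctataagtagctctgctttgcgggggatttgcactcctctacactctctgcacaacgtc
Btg2, chr1:134079156-134079405 (minus strand): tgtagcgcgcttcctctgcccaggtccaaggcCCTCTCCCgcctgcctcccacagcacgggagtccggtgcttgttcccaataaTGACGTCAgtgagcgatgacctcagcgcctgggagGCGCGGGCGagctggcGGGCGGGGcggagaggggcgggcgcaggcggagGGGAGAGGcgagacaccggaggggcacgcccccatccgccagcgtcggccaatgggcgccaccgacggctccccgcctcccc
RefSeq windows were found for 7 of the 10 genes (Fos, Jun, Junb, Jund, Atf3, Ier3 and Btg2). The KLF site was found in 5 of the 7 windows, those of Fos, Jun, Junb, Atf3 and Btg2, and in 45.9% of all 32851 windows of the same length. Overlapping matches formed 3 separate stretches in Jun, where the longest is a run of G, 3 in Btg2 and 1 each in Fos, Junb and Atf3. Ier3, which was higher in both experiments, held no match, and neither did the window of Jund. The cyclic AMP response element stood in Btg2 only (1.55% of all windows), as did the EGR site (4.70%). The AP-1 site TGANTCA (6.75% of all windows), the E-box CACGTG (6.02%) and the CArG box bound by SRF (1.47%) were found in none of the 7 windows, which says only that these letters are not in these 250 bases. The RefSeq window of Atf3 lies 34706 bases inside the locus that the tables give for this gene. The window of Jund ends at 70697738, whereas GENCODE M21 starts this gene at 70698949. The lack of a match in Jund therefore holds for this window only.

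Jun encodes the AP-1 subunit c-JUN, the partner of FOS. It had 0.26 FPKM in negative and 3.23 FPKM in positive cells, and 1.28 FPKM in GFP-OE and 2.5 FPKM in KLF3-OE cells. In sorted cells it went from the lowest of the 10 genes to a level beside Atf3, with a difference of 1.75 on the log2(FPKM + 1) scale, which is 12.4-fold in plain FPKM. On overexpression the difference was 0.62 (1.95-fold in plain FPKM), and 0.04 with the trend with genomic span removed. That removal kept the median of all genes tested, at -0.19. With median-ratio scaling as well the difference was 0.16. The gene has a single exon on the minus strand of chromosome 4 (mm10, 95049034 to 95052222), and the antisense gene Junos overlaps it. Smart-seq2 does not keep the strand, so reads of Jun and Junos cannot be told apart in sorted cells. The overexpression libraries are directional, but whether counting used the strand is not given in the sources used here. The lower value amounts to 0.829 fragments per 1000000 over the 3.19 kb of exons.

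Junb encodes a JUN protein that can oppose c-JUN in proliferation. Its level was 13.3 FPKM in negative and 30.3 FPKM in positive cells, and 10.2 FPKM in GFP-OE and 28.0 FPKM in KLF3-OE cells. The levels of the KLF3 groups were thus both above those of the controls, with differences of 1.13 and 1.37. Quantile normalization lowered the difference in sorted cells to 0.97, below the 2-fold limit. On overexpression the difference came to 0.66, also below the limit, with the trend of all genes with genomic span removed (described below), and to 0.85 with median-ratio scaling as well. Junb lies on chromosome 8 (84976909 to 84978748, minus strand).

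Jund encodes the JUN protein that is least dependent on stimulation. It had 6.98 FPKM in negative and 11.7 FPKM in positive cells, and 40.2 FPKM in GFP-OE and 78.3 FPKM in KLF3-OE cells. Its differences of 0.67 and 0.95 did not pass 2-fold. The latter came to 0.34 with the span trend removed, and to 0.53 with median-ratio scaling as well. The antisense gene Gm11175 overlaps this single-exon gene on chromosome 8 (70697739 to 70700616, plus strand), so the caution on strand holds here too.

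Summed over Jun, Junb and Jund, JUN transcripts stood at 20.6 FPKM in negative and 45.3 FPKM in positive cells, and at 51.7 FPKM in GFP-OE and 108.9 FPKM in KLF3-OE cells. The share of each gene in this sum does not depend on how columns are scaled. In sorted cells Junb made up most of the sum, 64.8% in negative and 66.9% in positive cells. Jun went from 1.26% to 7.13% and Jund from 33.9% to 25.9%. In overexpressing cells Jund was the main JUN gene, with 77.7% in GFP-OE and 71.96% in KLF3-OE cells, while Junb had 19.8% and 25.7% and Jun 2.48% and 2.30%. The experiments differ in library protocol and cell line, so that the different leading gene was not compared further.

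**Figure D3:**
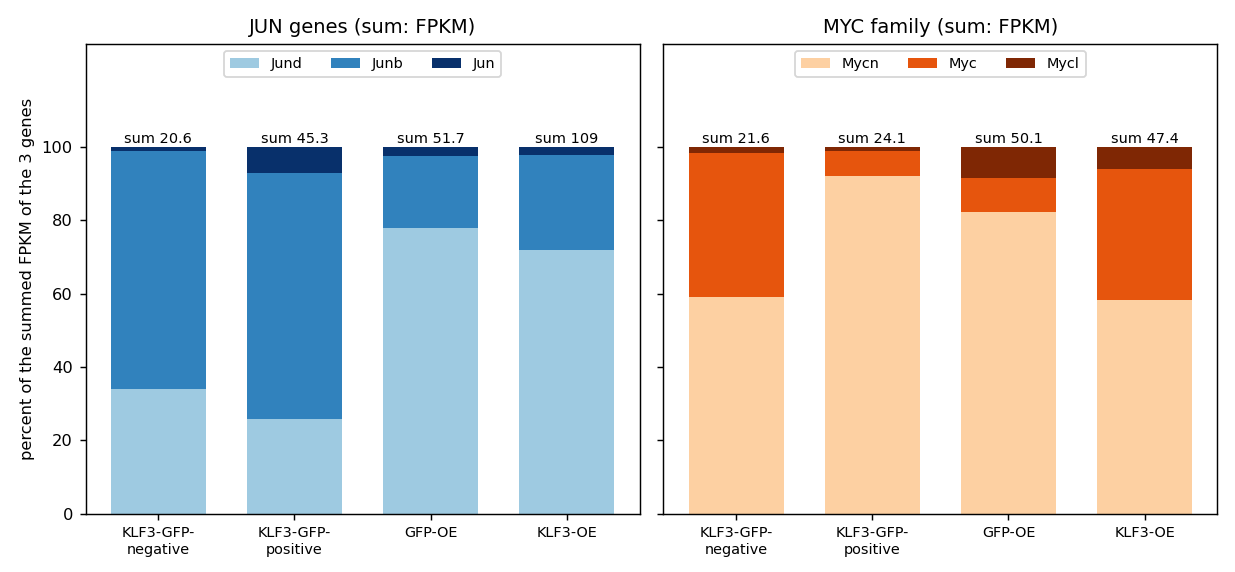
Share of each gene in the summed FPKM of the 3 JUN genes (left) and of the 3 MYC family genes (right), in percent for each group, with the sum in FPKM above each bar. Myc took 39.3% of its family in negative and 6.74% in positive cells, and 9.06% in GFP-OE and 35.7% in KLF3-OE cells.

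Fos encodes the AP-1 subunit that cannot pair with itself and needs a JUN partner. It had 0.46 FPKM in negative and 0.48 FPKM in positive cells, and 1.12 FPKM in GFP-OE and 0.74 FPKM in KLF3-OE cells. It was below the minimum in both experiments and did not share the higher levels of the JUN genes. Its differences were 0.02 and -0.28, and between 1.08 and 2.63 fragments per 1000000 fell on its 2.35 kb of exons in any group. Fos lies on chromosome 12 (85473890 to 85477273, plus strand).

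Atf3 encodes a stress-induced factor of the ATF and CREB family that can pair with JUN proteins and often represses. Atf3 stood at 0.43 FPKM in negative and 3.02 FPKM in positive cells, and 2.01 FPKM in GFP-OE and 3.03 FPKM in KLF3-OE cells. In sorted cells it was higher by 1.49 on the log2 scale (7.02-fold in plain FPKM), and on overexpression by 0.42, short of 2-fold. It is the longest member, with 47.7 kb on chromosome 1 (191170296 to 191218039, minus strand), where a small RNA gene, Gm24748, overlaps it, whereas the other 9 genes span 1.24 to 5.16 kb.

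Egr1, induced by ERK signalling through SRF and its ETS partners, went in different directions in the experiments. It had 0.43 FPKM in negative and 1.18 FPKM in positive cells, a difference of 0.61 with a mean below the minimum. It had 5.50 FPKM in GFP-OE and 2.38 FPKM in KLF3-OE cells, a difference of -0.94. This was just inside the 2-fold limit on the log2(FPKM + 1) scale and past it in plain FPKM, where KLF3-OE cells held 0.43 of the GFP-OE level. With a pseudocount of 0.1 the difference was -1.18, which passes the limit. Egr1 lies on chromosome 18 (34859823 to 34864984, plus strand).

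Ier2, a small nuclear protein of the immediate early response, was the most abundant member in every group. Its level was 106 FPKM in negative and 41.0 FPKM in positive cells, and 74.0 FPKM in GFP-OE and 129.9 FPKM in KLF3-OE cells. It was lower by a difference of -1.35 in positive cells and higher by 0.80, short of 2-fold, in KLF3-OE cells. The latter came to 0.06 with the span trend removed, and to 0.26 with median-ratio scaling as well. In negative cells Ier2 stood 7.96-fold above the next member, Junb, and in positive cells 1.35-fold. Ier2 lies on chromosome 8 (84661331 to 84662852, minus strand) and has a single exon.

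Ier3 encodes a protein that acts on apoptosis and ERK signalling. The level of Ier3 was 4.35 FPKM in negative and 13.1 FPKM in positive cells, and 6.82 FPKM in GFP-OE and 12.6 FPKM in KLF3-OE cells. The levels of the KLF3 groups were above those of their controls, by 1.40 in sorted cells and by 0.80 on overexpression. The latter was short of 2-fold. It came to 0.02 with the span trend removed, and to 0.21 with median-ratio scaling as well. Ier3 is the shortest member (chromosome 17, 35821684 to 35822923, plus strand).

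Btg2 encodes an antiproliferative protein that recruits the CCR4-NOT deadenylase and is a target of p53. Btg2 stood at 5.69 FPKM in negative and 23.8 FPKM in positive cells, and 9.19 FPKM in GFP-OE and 14.8 FPKM in KLF3-OE cells. Its difference of 1.89 in sorted cells was the largest increase among the members, and 401 of the 9212 genes tested had a larger one. On overexpression the difference was 0.63. It was 0.12 with the span trend removed, and 0.31 with median-ratio scaling as well. Of 7 other genes of its family and their deadenylase partners, 6 were tested in sorted cells (Btg4 was in neither table), and none passed 2-fold in either direction, and Btg3 had the largest difference, from 2.74 to 5.48 FPKM (0.79). On overexpression 1 of 6 was lower, Tob1, from 13.2 to 5.15 FPKM (-1.20, reaching -0.91 among the alternatives), and Btg3 had 44.4 and 22.3 FPKM (-0.96). The median of these 6 genes was 0.41 in sorted and -0.56 in overexpressing cells, against 0.03 and -0.18 over all genes tested. Btg2 lies on chromosome 1 (134075170 to 134079120, minus strand).

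**Figure D4:**
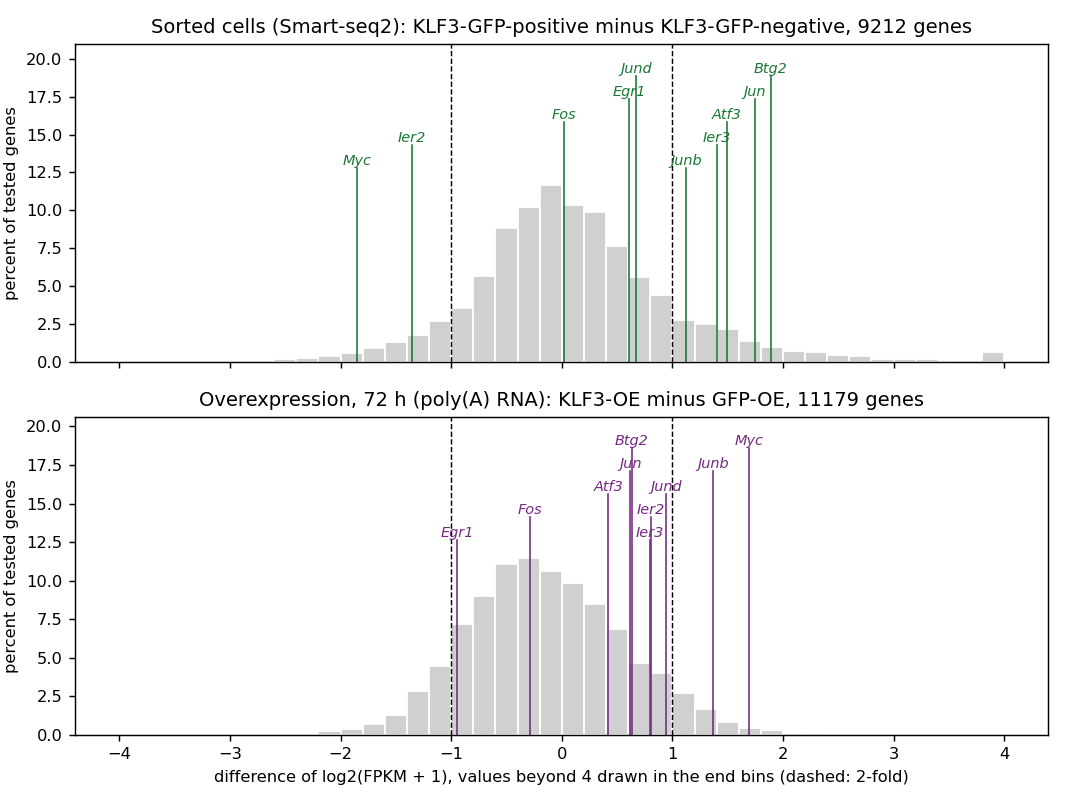
Position of the 10 genes in the distribution of all genes tested. Bars give the percent of genes per bin of 0.2 of the difference of log2(FPKM + 1), lines the members, dashed lines 2-fold. In sorted cells 123 of 9212 genes tested lay below Myc, and in overexpressing cells 124 of 11179 genes lay above it.

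Myc was the member with the largest difference between the experiments. It had 8.47 FPKM in negative and 1.62 FPKM in positive cells, which is 5.23-fold lower in plain FPKM and -1.85 on the log2(FPKM + 1) scale. It had 4.54 FPKM in GFP-OE and 16.9 FPKM in KLF3-OE cells, which is 3.72-fold higher and 1.69. Of the 8887 genes tested in both experiments, 66 (0.74%) were likewise lower past 2-fold in sorted cells and higher past it on overexpression, and 43 (0.48%) showed the reverse. Myc lies on chromosome 15 (61985341 to 61990374, plus strand).

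The paralogue Mycn, which also pairs with MAX, differed in the opposite direction to Myc in each experiment. It had 12.8 FPKM in negative and 22.2 FPKM in positive cells (0.75), and 41.3 FPKM in GFP-OE and 27.6 FPKM in KLF3-OE cells (-0.56), both short of 2-fold. Across the alternatives its difference stayed between 0.61 and 0.81 in sorted cells and between -0.95 and -0.36 on overexpression. The sum over Myc, Mycn and Mycl was 21.6 and 24.1 FPKM in sorted cells and 50.1 and 47.4 FPKM in overexpressing cells, so it differed less than Myc or Mycn. Mycn made up 59.2% of this sum in negative and 92.1% in positive cells, and 82.3% in GFP-OE and 58.3% in KLF3-OE cells. Max, the shared partner, had 16.5 and 19.6 FPKM in sorted cells and 39.8 and 38.5 FPKM in overexpressing cells, where the sign of its difference changed among the alternatives.

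Of the 12 listed genes of the MYC family, MAX and its other partners, 7 were tested in sorted cells and none passed 2-fold in either direction (median 0.22). On overexpression 10 were tested, none was higher and 2 were lower (median -0.52, against -0.18 over all genes tested). These were Mga, a repressor that pairs with MAX, from 22.3 to 5.0 FPKM (-1.96), and Mnt, a repressor that competes with MYC for MAX, from 9.76 to 4.23 FPKM (-1.04). Across the alternatives the difference of Mnt lay between -1.21 and -0.75, so that its call depended on the setting.

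All 30 listed MYC target genes of ribosome synthesis and growth were tested. In sorted cells 1 was higher and 2 were lower (median -0.29), where 13.8% of all genes tested were higher and 8.32% lower. The gene that was higher, Ccnd2, a D-type cyclin, had 0.98 and 19.6 FPKM (3.38). Tfrc, the transferrin receptor, had 6.50 and 1.39 FPKM (-1.65), and Dkc1, a pseudouridine synthase, had 133 and 51.1 FPKM (-1.37). On overexpression 2 were higher, the nucleolar gene Ncl and the nucleotide kinase gene Nme1, and 2 were lower, with a median of 0.14. Both calls upward were lost under an alternative, where Ncl came to 0.74 and Nme1 to 0.77. Of all genes tested on overexpression, 6.59% were higher and 10.1% lower. Eif4e, the cap-binding translation factor, had 131 and 29.3 FPKM (-2.12), and Dkc1 had 134 and 30.8 FPKM (-2.08). Dkc1 was thus lower in both experiments, also where Myc was higher. Of 8 listed genes that MYC represses, 7 were tested in sorted cells, where 2 were higher and 2 lower (median 0.26). On overexpression 3 of 8 were higher and 1 was lower (median 0.74), of which Gadd45a came to 0.43 under an alternative. Gadd45g, a growth arrest gene, had 1.76 and 28.3 FPKM in sorted cells (3.41) and 1.33 and 18.7 FPKM on overexpression (3.08). Cdkn1c, a cyclin-dependent kinase inhibitor, had 22.9 and 5.30 FPKM (-1.93) and 8.07 and 27.4 FPKM (1.65), and so lay on the same sides as Myc.

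By Euclidean distance over the 4 values of log2(FPKM + 1), among 8886 genes tested in both experiments, the levels of Myc were most like those of Mt3, Tcea2 and Dab1, at distances of 0.63 to 0.70. Mt3, a metallothionein, had 7.78 and 2.93 FPKM in sorted cells and 5.41 and 17.3 FPKM in overexpressing cells. For Egr1 the nearest genes tested in both experiments were Dcun1d4, Gxylt1 and Zfp599 (0.31 to 0.34), and for Fos they were Zfp54, Zfp449 and Abcc10 (0.69 to 0.79). Neither Egr1 nor Fos passed the minimum in both experiments, so genes as low as they are, which may lie nearer, were left out. Likeness over 4 averages describes these groups only.

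Other immediate early and early response genes moved in both directions. Of 36 listed, 27 were tested in sorted cells, of which 5 were higher and 6 lower (median 0.19). Of all genes tested there, 13.8% were higher and 8.32% lower. Cyr61, a matricellular protein and target of SRF and YAP, had 1.17 and 50.5 FPKM (4.57), and Klf6, a Kruppel-like factor induced by serum, had 2.24 and 19.0 FPKM (2.63). Dusp4, Ctgf and Id2 were the others called higher. The genes called lower were Dusp1, Nfkbia, Dusp6, Plk3, Pim3 and Klf2. Among the phosphatases that switch off MAP kinases, Dusp4 had 1.44 and 10.46 FPKM (2.23), whereas Dusp6 had 4.97 and 1.23 FPKM (-1.42) and Dusp1 18.0 and 4.97 FPKM (-1.67). The list thus held opposite directions within 1 gene family, as the members did with Myc and Ier2 against the rest.

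On overexpression 32 of the 36 were tested, of which 6 were higher and 3 lower (median 0.27). Of all genes tested there, 6.59% were higher and 10.1% lower. Cyr61 had 8.36 and 51.2 FPKM (2.48) and Ctgf, another matricellular gene, had 7.22 and 39.1 FPKM (2.29). Id1, Id3, Rhob and Ppp1r15a were the others called higher, and Klf4, Klf10 and Sgk1 were called lower. Cyr61 passed 2-fold in both experiments under all alternatives, with differences of 4.45 to 5.43 in sorted and 1.88 to 2.68 in overexpressing cells. Ctgf did so on overexpression, and in sorted cells its difference of 1.07 came to 0.95 under an alternative. Calls were likewise lost under an alternative for Id2 (0.97) and Klf2 (-0.97) in sorted cells and for Rhob (0.70), Ppp1r15a (0.72), Klf4 (-0.97) and Sgk1 (-0.59) on overexpression.

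Of the 14 other AP-1 subunits listed, 5 were tested in sorted cells, where 1 was higher and none lower (median 0.62). This was Atf7, from 4.06 to 11.3 FPKM (1.28), followed by Mafg, from 3.40 to 7.78 FPKM (0.997, just short of the limit). On overexpression 8 were tested, 2 were higher and 1 was lower (median -0.23). The FOS paralogue Fosl1 had 0.14 and 2.82 FPKM (1.74), and Batf3 had 0.49 and 2.59 FPKM (1.27). Both passed the minimum through KLF3-OE cells alone. Jdp2, a repressor of AP-1, had 7.32 and 2.86 FPKM (-1.11, and -0.69 under an alternative). Of 8 other EGR, NR4A and NAB genes, 1 was tested in sorted cells (Nr4a1, 4.66 and 3.26 FPKM, -0.41) and 3 on overexpression, with no gene past 2-fold. The corepressors of EGR1 among them, Nab2 and Nab1, had differences of 0.26 and -0.21 there.

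Upstream of these genes, 13 of 14 listed genes for SRF, its cofactors, ETS partners and CREB were tested in each experiment. In sorted cells 1 was higher, the CREB coactivator Crtc3 (0.62 and 3.06 FPKM, 1.33), and 1 was lower, the ETS factor Elk3 (7.38 and 2.56 FPKM, -1.24). On overexpression none was higher and 3 were lower, with Elk1 (7.71 and 2.22 FPKM, -1.44) and Ep300 (8.75 and 2.86 FPKM, -1.34) first. The calls of Ep300 (up to -0.86) and Atf1 (up to -0.71) depended on the setting. Srf itself had 2.14 and 2.55 FPKM in sorted and 7.97 and 8.23 FPKM in overexpressing cells, which are differences of 0.18 and 0.04. Of the kinases of the MAPK cascades, 19 were tested in sorted cells with none past 2-fold in either direction (median 0.28, largest for Rps6ka1 at 0.98 and Hras at 0.93). On overexpression 21 were tested (median -0.36, against -0.18 over all genes tested). Hras (36.6 and 104 FPKM, 1.48) and Map2k2 were higher. Mapk8, the JUN kinase JNK1 (11.0 and 2.64 FPKM, -1.72), and Mapk9 were lower, the call of Mapk9 being lost at -0.92 under an alternative.

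The overexpression differences stood beside a trend with gene size. The median difference of all genes tested was -0.18, and relative to it Myc was higher by 1.87, Junb by 1.55, Jund by 1.13, Ier2 and Ier3 by 0.98, Btg2 by 0.81, Jun by 0.80 and Atf3 by 0.60, while Egr1 stood at -0.76. The median went from 0.35 in the shortest of 5 groups of equal size by genomic span (up to 7.41 kb) to -0.49 in the longest. In the shortest group 16.4% of the genes were higher past 2-fold, and 8 of the 9 members tested belong to it. With the trend removed, Myc kept a difference of 1.26 and Egr1 passed the limit at -1.36. The other members of the shortest group came to between 0.02 (Ier3) and 0.66 (Junb). Atf3, in the fourth group, came to 0.70. This removal kept the median of all genes tested, at -0.19. With median-ratio scaling as well, where that median was -0.01, Myc had 1.44, Egr1 -1.21 and Atf3 0.85. The other members of the shortest group then had between 0.16 (Jun) and 0.85 (Junb). All members tested kept their sign under every alternative in both experiments. In sorted cells the median of the groups by span went from -0.03 to 0.12. With median-ratio scaling alone, Jund (1.15) and Ier2 (1.01) passed 2-fold on overexpression, beside Myc and Junb.

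**Figure D5:**
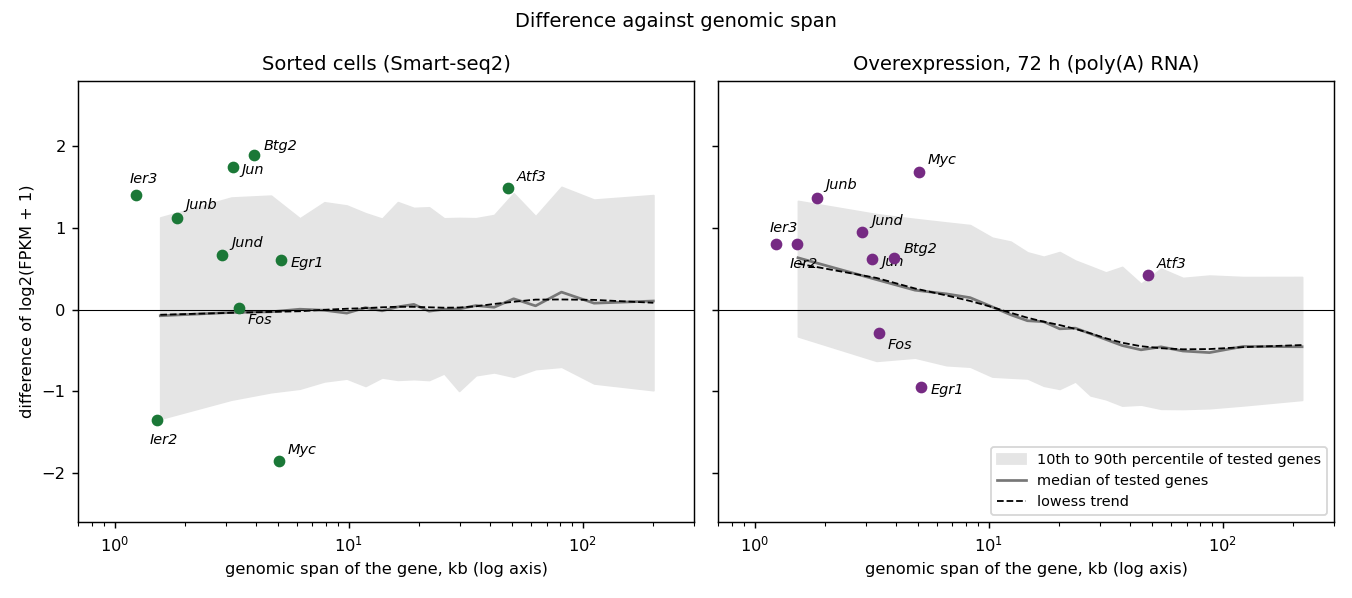
Difference of log2(FPKM + 1) of the members against the genomic span of the gene in kb on a log axis, with the median, the range from the 10th to the 90th percentile of all genes tested in 20 bins of span, and the lowess trend. On overexpression Jun, Ier2, Ier3 and Btg2 lie a little above the trend, Myc further above it and Egr1 below it.

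Markers of mESCs and of other cell types were followed in the same groups. All 10 listed markers of primitive endoderm, among them Gata4, Gata6 and Sox17, were higher past 2-fold in both experiments. Their sum went from 42.5 to 1513 FPKM in sorted and from 172 to 676 FPKM in overexpressing cells. On overexpression the call of Sox7 was lost at 0.75 under an alternative. Dab2, Foxa2, Lama1, Pdgfra and Sox7 passed the minimum in sorted cells through positive cells alone. On overexpression Foxa2, Pdgfra and Sox7 passed it through KLF3-OE cells alone. Of 10 mESC markers, all were tested, and 7 were lower and none higher in positive cells (sum 22008 to 11552 FPKM), and 2 were lower and 1 higher in KLF3-OE cells. Under alternatives the calls of Esrrb (-0.69) and Sall4 (0.91) there were lost. In KLF3-OE cells 6 of the 10 had negative differences (median -0.67), and the sum went from 6505 to 8684 FPKM with Dppa5a (3794 and 6334 FPKM) and from 2711 to 2350 FPKM over the other 9. Of 10 trophoblast markers, 2 were higher and 1 lower in sorted cells and 3 were higher on overexpression, with sums of 37.8 and 394 and of 98.2 and 549 FPKM, and Elf5 was in neither table. Krt8 and Krt18, keratins that other epithelia also express, held 389 of the 394 FPKM and 516 of the 549 FPKM. The other 7 markers summed to 6.82 and 4.21 FPKM in sorted and 35.3 and 32.8 FPKM in overexpressing cells. Of the 9 trophoblast markers in the tables, 5 had positive and 4 negative differences in sorted cells. In overexpressing cells 8 had positive differences and 1 a negative one. The latter was Tfap2c, which with 26.2 and 13.1 FPKM made up much of the sum of the 7. Of 10 fibroblast and feeder markers, 4 were in the table of sorted and 6 in that of overexpressing cells, without Col3a1, Dcn, Lum and Postn in either. Their sums were 19.8 and 7.98 and 212 and 125 FPKM, most of which was Fn1 and Vim. Fn1 had 6.83 and 3.32 FPKM in sorted and 162.8 and 62.1 FPKM in overexpressing cells. Vim had 12.4 and 4.15 FPKM and 44.8 and 56.0 FPKM. Of 8 blood and immune markers, 4 and 3 were in the tables, without Ptprc in either, with sums of 6.40 and 17.4 and of 13.4 and 10.1 FPKM. The part of these cell types in the levels of the immediate early genes and Myc was not tested. Klf3 itself had 107 and 122 FPKM in sorted cells and 58.7 and 47.8 FPKM in overexpressing cells, where the codon-optimized transgene need not align to it. In sorted cells the reporter construct carries part of the Klf3 sequence. These values can therefore include its transcript beside that of the Klf3 gene of the cells.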

How the data were processed

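RNA-seq libraries of 8 samples in 4 groups of 2 were analysed, assigned by their labels. The authors aligned reads to mm10 with STAR (2.6.0 in the submitters' processing notes, another release in the methods), guided by GENCODE, and computed FPKM with Cufflinks (2.2.1). They deposited 1 FPKM value per gene and group, averaged over the 2 replicates, rounded to 2 decimals, with 0.1 as the lowest value. Sequencing depth cannot be read from these averages, so no counting interval is given, and any test needs replicates. Table columns were used through their group names (0 columns were left out), and identifiers with several loci were represented by the highest mean.

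Differences of log2(FPKM + 1) were computed in Python 3.11.15 with pandas 2.3.3 for genes averaging 1 FPKM or more, and called past 2-fold or 0.5-fold. The alternatives were pseudocounts of 0.1 and 0, no minimum or 5 FPKM, median-ratio scaling, quantile normalization and removal of a lowess trend (fraction 0.3, statsmodels 0.14.6) with genomic span. After the trend was removed the median of all genes tested was added back, except together with median-ratio scaling. The functions were tested on simulated data. Starts in the tables count from 0 and are printed from 1. Exons came from GENCODE M21, which held 99.8% of the identifiers. Promoter windows are RefSeq's.

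The members, lists and tests were chosen with earlier results of these data known. Genes named are the members, the 2 largest differences per list and experiment, the 3 nearest tested genes of Fos, Egr1 and Myc, and Klf3. Other genes of the lists and Max and Srf were named after their values were seen.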

Additional observations from a re-analysis of the deposited data

How the results depend on the processing

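Because a table holds 1 average per group, the precision of each difference is unknown, and replicates could not be left out. No paired analysis was possible because the columns carry no replicate numbers. Under the alternatives, 61 of 62 member differences in sorted cells and 60 of 69 on overexpression kept their side of the 2-fold limit, and none changed sign.

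A minimum of 5 FPKM left 3 members higher in sorted cells, because Jun and Atf3 are below it, and 840 genes higher and 417 lower overall. On overexpression it left 734 genes lower. A pseudocount of 0.1 gave 1 member lower on overexpression (Egr1) and 1817 genes lower, and no pseudocount gave 1 and 1912. Median-ratio scaling gave 4 members higher there, 1164 genes higher and 699 lower, and quantile normalization 711 genes lower. With the span trend removed, 1 member was higher (Myc) and 1 lower (Egr1), the median of the tested members was 0.12 in place of 0.80, and 480 genes were higher. With median-ratio scaling as well, these were 1 member higher, 1 lower, a median of 0.31, and 610 genes lower. All other counts stayed within 1.5 times.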

Other observations

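Stress genes related to ATF3 were examined beside the members. Of 12 listed ATF3 and ATF4 stress genes, 11 were tested in each experiment. In sorted cells 1 was higher and 2 were lower (median -0.06 on the log2(FPKM + 1) scale). Trib3, a pseudokinase induced through ATF4, had 5.70 FPKM in negative and 1.06 FPKM in positive cells (-1.70), and Asns, asparagine synthetase, had 196 and 81.3 FPKM (-1.26). On overexpression 1 was higher, Ppp1r15a (29.9 and 74.3 FPKM, 1.28, and 0.72 under an alternative), which also stands in the list of early response genes, and 1 was lower, Chac1 (10.95 and 3.85 FPKM, -1.30). The median there was 0.06. Of 12 heat shock genes, 10 were tested in each experiment. In sorted cells 1 was higher and none lower (median -0.16), namely the cochaperone Bag3 (0.66 and 3.50 FPKM, 1.44), and Hspa8 had 1291 and 694 FPKM (-0.90). On overexpression 1 was higher, Hspb1 (193 and 590.02 FPKM, 1.61, and 0.87 under an alternative), and 2 were lower (median -0.04), among them Hsp90aa1 (2503 and 892 FPKM, -1.49).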
